A study of Mus musculus with 107 samples.

Results

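RAG is a mouse kidney cancer cell line. Its tumors were grown from RAG cells adapted by passage in mice and transplanted under the skin of the right flank of female BALB/cAnNCrlCrlj mice aged 7 weeks. Of the 107 mouse tumors of the series, 6 make up the comparison described here, which covers all genes. They are 3 tumors (numbers 2, 3 and 4) from mice given lenvatinib (LEN) by mouth at 10 mg/kg once daily and 3 tumors (numbers 1, 2 and 5) from untreated mice (NT), all taken on day 8, counted from the start of treatment at about 100 mm3. Values per tumor are given below in this order of numbers. A further 3 RAG tumors taken at the start, called treatment-naïve, are given as a description. The 66 day 8 tumors of the other 11 models, 3 LEN and 3 NT tumors each, were used to test whether an effect of LEN differed in RAG. Of these models, 5 grew in BALB/cAnNCrlCrlj mice and 6 in mice of other strains, and Hepa 1-6 and BNL 1ME A.7R.1 grew in males, so that in such a difference the tumor line and its host strain or sex cannot be told apart. All RAG tumors come from a single line, and they grew under the skin rather than in the kidney.

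LEN inhibits the tyrosine kinases of the VEGF receptors, the FGF receptors, PDGFRα, KIT and RET. VEGF made by tumor cells acts on VEGF receptors of endothelial cells, which line blood vessels, and drives sprouting led by tip cells under Notch signaling. Vessels are wrapped in a basement membrane and in pericytes. Where oxygen runs short, the HIF transcription factors switch on genes of glycolysis, acid handling and VEGF itself through DNA sites with the core ACGTG. In clear cell kidney cancer of patients, HIF and VEGF are often active because the VHL gene is lost. The question put to these tumors is how the vessel genes, summed up in the MVD gene score, and the rest of the tumor transcriptome stood on day 8 of LEN.

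Kidney lineage genes were detected. Of 22 genes on the kidney epithelial list, 13 were tested, with a median change of 0.05 and 0 called in either fit (1 higher and 3 lower at an unadjusted p under 0.05 in limma). At a pseudocount of 0.1, Hnf4a was called lower in the fit of 72. Of the 13, LEN stood above NT for 2 and below for 3, against 5.09% and 9.06% of all genes. The 3 were Spp1, Clu and Aqp1. The list summed to 3104, 2862 and 2478 in NT and 2253, 2169 and 2290.3 in LEN tumors, in TPM, without overlap, and most of that sum was Spp1, at 2364, 1997 and 1756 TPM in NT and 1463, 1467 and 1570.2 TPM in LEN tumors. Pax8, a transcription factor of kidney epithelium, was at 35.05, 29.1 and 28.6 TPM in NT and 29.8, 32 and 34.2 TPM in LEN tumors, and Cdh16, the kidney-specific cadherin, at 47.4, 58.8 and 50.8 TPM in NT and 52.8, 57.5 and 52.2 TPM in LEN tumors. Slc34a1 and Umod, markers of the proximal tubule and the thick ascending limb, are listed at 0 in all 9 RAG tumors. Havcr1, an injury marker of the proximal tubule, was at 139, 82.4 and 86.4 TPM in NT and 102, 149.6 and 126 TPM in LEN tumors, and its groups overlapped. The deposited values are TPM, which carry no sequencing depth, so counting precision is unknown. Pairs of tumors of the same group had a correlation of log2(TPM + 1) between 0.950 and 0.960, and pairs of an NT and a LEN tumor between 0.946 and 0.957. Mitochondrially encoded RNA took between 8.64% and 13.8% of the TPM in NT and between 13.1% and 21.6% in LEN tumors, and the small RNAs Rn7s1, Rn7s2 and Rn7sk between 24.3% and 32.4% in NT and between 17.5% and 26.8% in LEN tumors. Their part in the results was not tested, but the counts of calls were also made with TPM rescaled to the protein-coding genes.

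Igfbp3 was the 1 protein-coding gene called in the fit of the 6 RAG tumors, and it fell from a mean of 59.6 ± 4.24 TPM (SD, n = 3) in NT to 19.97 ± 2.18 TPM (SD, n = 3) in LEN tumors. Igfbp3 encodes a secreted carrier of insulin-like growth factors that endothelial cells and tumor cells both make. It was at 57.2, 64.5 and 57.2 TPM in NT and 18.4, 19.1 and 22.4 TPM in LEN tumors, with no overlap between the groups, and at 48.1, 55 and 48.1 TPM in treatment-naïve tumors. The change was -1.53 on the log2(TPM + 1) scale (standard error 0.11, limma adjusted p = 0.00934), and in the fit of all 72 day 8 tumors the adjusted p was 9.3e-08. In the GENCODE M21 annotation of GRCm38, Igfbp3 (ENSMUSG00000020427) lies on the minus strand of chromosome 11 from 7206086 to 7213923. Without LEN tumor 2 the limma adjusted p of Igfbp3 in the fit of 6 was 0.0628, and it stayed under 0.05 when any other tumor was left out.

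In all, limma called 5 of 15355 genes (0.0326%) at an adjusted p under 0.05, 1 lower (0.00651%) and 4 higher (0.0261%). At an unadjusted p under 0.05, 490 genes (3.19%) were higher and 856 (5.57%) lower, so that 36.4% of these were higher (22.5% with upper-quartile and 25.8% with protein-coding scaling). Leaving out 1 tumor moved this share between 21.9% (without LEN tumor 3) and 53.7%, and without NT tumor 2 its direction turned, with 607 genes higher and 524 lower. Without LEN tumor 2 it was 46.3%. All 3 LEN tumors stood above all 3 NT tumors for 782 genes (5.09%) and below them for 1391 genes (9.06%). The 4 higher genes are annotated as miRNA genes. AC125099.1 (chromosome 3), AC125099.2 (chromosome 3) and Gm44341 (chromosome 13) have the same value in every RAG tumor, 40.4, 15.5 and 48.8 TPM in LEN and 0 in the 3 NT tumors, and so give a single measurement. AC147560.1 on chromosome 9 was at 51.7, 91.5 and 24.4 TPM in LEN and is listed at 0 in the 3 NT tumors. They were also present without LEN in treatment-naïve tumors, which had 14.6, 0 and 33.8 TPM of Gm44341 and 0, 51.9 and 0 TPM of AC147560.1. An exact 0 in an estimated value can be a failed estimate, and no fold is given. In the fit of 72 none of the 4 passed (limma adjusted p = 0.0878 for Gm44341 and 0.108 for AC147560.1), and without LEN tumor 2 the adjusted p of all 4 in the fit of 6 was 0.0628.

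The same difference was also tested in a limma fit of all 72 day 8 tumors, which takes the spread from 24 groups and assumes that RAG tumors vary like those of the other models. There, 57 of 17351 genes (0.329%) rose and 122 (0.703%) fell in RAG, 160 of them protein-coding. With TPM rescaled by the upper quartile of each tumor the numbers were 93 and 429, and with TPM rescaled to protein-coding genes 112 and 431, so the share of falls among the calls was larger under both. Without LEN tumor 2, 56 genes fell, without LEN tumor 4, 65, and without NT tumor 2, 67. Without LEN tumor 3, 31 genes rose, and without NT tumor 1, 34. Below, a gene is said to have risen or fallen if it passed in this fit, and the adjusted p of the fit of 6 is given beside it. A standard error given with a change in RAG is that of the fit of 6. The lists of genes were chosen with earlier results of these data known. Their members are described beside the median change of all 15355 genes, -0.03.

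Endothelial genes were lower in LEN tumors. Of 40 genes on the endothelial list, 32 averaged 1 TPM or more over the 6 tumors. LEN tumors stood below all NT tumors for 22 of these 32 and above them for 0, against 9.06% and 5.09% of all genes. Their median change was -0.55, and 31 of the 32 had a negative change. In the fit of 72, 9 of 37 tested members fell and 0 rose, where 0.703% of all genes fell. These 9 were Cdh5, Pcdh12, Pecam1, Cd34, Cldn5, Gpihbp1, Esam, Notch4 and Robo4. With 6 tumors, 0 members passed (21 had an unadjusted p under 0.05). Without LEN tumor 2 the 9 falls were 3, without NT tumor 5 they were 5, and with either rescaling they were 19. The summed level of the 40 genes was 213, 229.7 and 243 in NT and 127, 143 and 143 in LEN tumors, in TPM. In bulk tissue, fewer endothelial cells and less RNA of these genes per cell cannot be told apart.

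Cldn5, a tight junction protein of endothelium, was at 2.8, 3.52 and 3.83 TPM in NT and 0.60, 0.92 and 0.65 TPM in LEN tumors. Its change was -1.34 (standard error 0.18, limma fits, adjusted p = 0.101 with 6 and 2.67e-05 with 72 tumors). Cd34, a sialomucin of capillaries, was at 6.7, 7.79 and 7.64 TPM in NT and 3.21, 2.46 and 2.32 TPM in LEN tumors. Its change was -1.199 (standard error 0.14, limma fits, adjusted p = 0.0613 with 6 and 0.00161 with 72 tumors). For both genes the LEN tumors lay well below every NT tumor, and the treatment-naïve tumors lay in the NT range or close to it, at 2.76, 3.13 and 3.37 TPM of Cldn5 and 6.92, 8.1 and 6.92 TPM of Cd34. Cdh5, the VE-cadherin of adherens junctions, was at 10.6, 8.47 and 11.5 TPM in NT and 4.15, 4.93 and 4.76 TPM in LEN tumors. Its change was -0.99 (standard error 0.14, limma fits, adjusted p = 0.111 with 6 and 0.0068 with 72 tumors). Gpihbp1, which carries lipoprotein lipase to the capillary lumen, was at 11.97, 8.96 and 12.6 TPM in NT and 2.29, 4.81 and 3.7 TPM in LEN tumors. Its change was -1.43 (standard error 0.23, limma fits, adjusted p = 0.136 with 6 and 0.00281 with 72 tumors). Pecam1, which encodes CD31, was at 13.9, 18.3 and 19.2 TPM in NT and 9.46, 7.88 and 8.22 TPM in LEN tumors, again without overlap, a change of -0.92 (standard error 0.15, limma fits, adjusted p = 0.136 with 6 and 0.0286 with 72 tumors). Cldn5 and Cd34 passed in the fit of 72 whichever RAG tumor was left out. Cdh5 did not pass without LEN tumor 2 (limma adjusted p = 0.0518) or NT tumor 5 (0.0540), Gpihbp1 did not without LEN tumor 2 (0.0505), and Pecam1 passed only without NT tumor 1, with adjusted p-values up to 0.134 without the others.

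The MVD gene score averages log2(TPM + 1) of Tek, Sparcl1, Pcdh12, Kdr, Eng and Cdh5. It stood at 2.78, 2.74 and 2.82 in NT and 2.15, 2.38 and 2.34 in LEN tumors. The mean was 2.78 ± 0.040 (SD, n = 3) in NT, 2.29 ± 0.12 (SD, n = 3) in LEN and 2.57 ± 0.064 (SD, n = 3) in treatment-naïve tumors. The difference of -0.49 (standard error 0.12) was the largest of the 20 ways to split the 6 tumors. An exact permutation test, two-sided, gave p = 0.1, which 3 against 3 cannot go below, and limma an unadjusted p of 0.0044. The genes of the score differed. Pcdh12, a protocadherin of endothelium, was at 1.8, 1.75 and 1.58 TPM in NT and 0.54, 0.77 and 0.71 TPM in LEN tumors (limma fits, adjusted p = 0.344 with 6 and 0.0131 with 72 tumors) and did not pass in the fit of 72 without LEN tumor 2 (0.0890) or NT tumor 1 (0.057). Sparcl1, a matricellular protein, was at 30.3, 36.5 and 36.4 TPM in NT and 28.1, 20.6 and 25.9 TPM in LEN tumors, without overlap, but did not pass (limma fits, adjusted p = 0.422 with 6 and 0.409 with 72 tumors). Eng, a coreceptor for TGF-β ligands, was at 13.3, 15.2 and 11.7 TPM in NT and 7.41, 13.8 and 11.2 TPM in LEN tumors, and Kdr, the main VEGF receptor, at 3.18, 2.76 and 3.44 TPM in NT and 1.89, 3.65 and 2.6 TPM in LEN tumors. The groups of Eng and of Kdr overlapped, and LEN tumor 3 was within or above the NT range for both. Tek, the angiopoietin receptor, was at 0.76, 0.48 and 0.80 TPM in NT and 0.35, 0.25 and 0.43 TPM in LEN tumors, under the minimum for a test of its own.

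**Figure D1:**
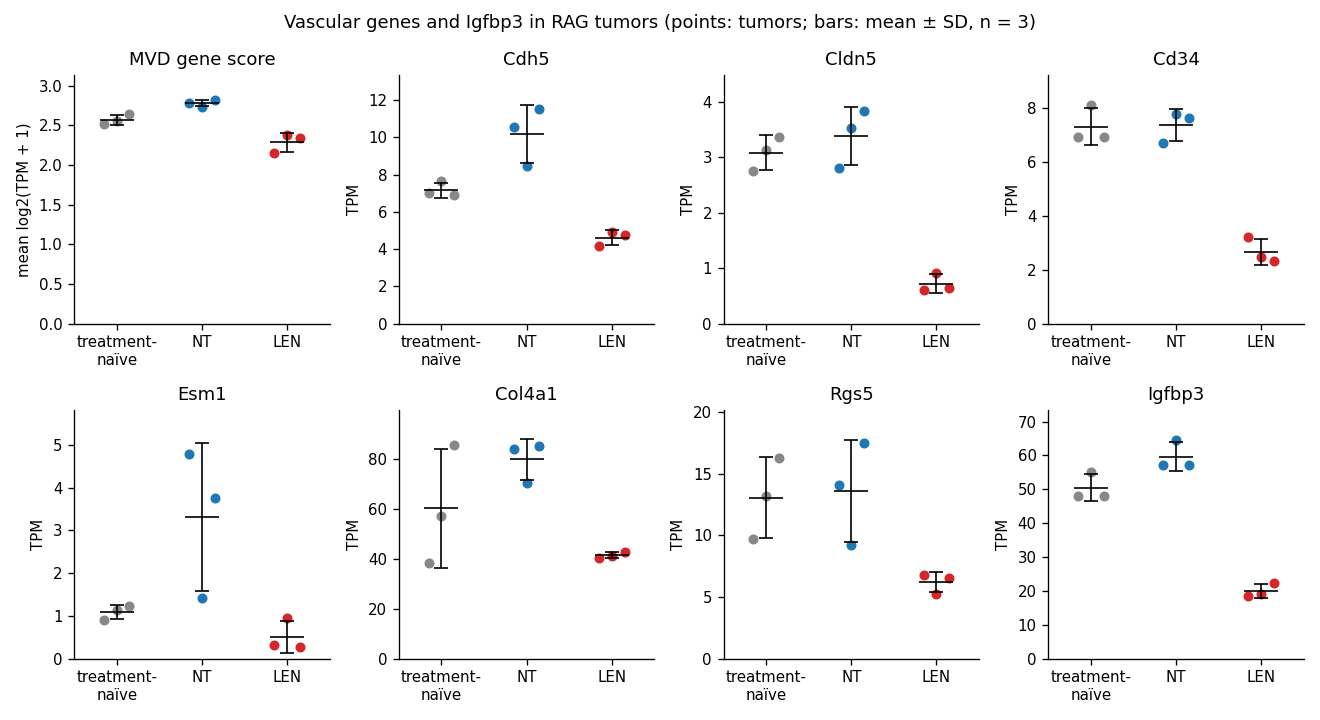
Level of the MVD gene score (mean log2(TPM + 1)) and of 7 genes (TPM, linear axes from 0) in each treatment-naïve, NT and LEN tumor of RAG, with the mean and SD of 3 tumors. In every panel the 3 LEN tumors lie below the 3 NT tumors. In Esm1, NT tumor 2 is at 1.41 and LEN tumor 3 at 0.940 TPM.

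Nid2, Esm1 and Dll4 fell among the genes of tip cells and Notch signaling. The list's 15 tested members had a median change of -0.38, with LEN below NT for 9 and above for 1, and 3 of 16 fell and 0 rose in the fit of 72 (5 fell with either rescaling, with Angpt2 and Unc5b). Of all genes, 9.06% had LEN below and 5.09% above NT, and 0.703% fell. Esm1, a proteoglycan secreted by tip cells, was at 4.79, 1.41 and 3.76 TPM in NT and 0.31, 0.94 and 0.28 TPM in LEN tumors. Its change was -1.45 (standard error 0.36, limma fits, adjusted p = 0.32 with 6 and 0.000469 with 72 tumors). NT tumor 2 was close to the LEN tumors, and treatment-naïve tumors were at 0.90, 1.13 and 1.24 TPM, and NT tumors 1 and 5 stood highest. Dll4, the Notch ligand of tip cells, was at 3.67, 2.03 and 3.35 TPM in NT and 1.02, 1.5 and 0.79 TPM in LEN tumors (limma fits, adjusted p = 0.324 with 6 and 0.00668 with 72 tumors), and it did not pass in the fit of 72 without NT tumor 1 (0.0702) or LEN tumor 4 (0.0704). Apln, the apelin peptide, is often counted among tip cell genes but is also made by other cells under hypoxia. It was at 17.3, 14.03 and 17.96 TPM in NT and 17.98, 20.9 and 19.9 TPM in LEN tumors, with the LEN tumors at or above the highest NT tumor and no call (limma fits, adjusted p = 0.65 with 6 and 0.78 with 72 tumors).

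Genes of the vascular basement membrane had a median change of -0.51 over 12 members, with LEN below NT for 8, and 5 of 12 fell in the fit of 72 (2 without NT tumor 5 and 3 without NT tumor 2). Of all genes, 9.06% had LEN below NT and 0.703% fell. Col4a1 and Col4a2 encode the 2 chains of the main type IV collagen. Col4a1 was at 83.9, 70.3 and 85.4 TPM in NT and 40.5, 41.1 and 42.8 TPM in LEN tumors. Its change was -0.92 (standard error 0.11, limma fits, adjusted p = 0.0607 with 6 and 0.00653 with 72 tumors). Col4a2 was at 42.8, 37.6 and 52.5 TPM in NT and 21.8, 21.3 and 23.5 TPM in LEN tumors. Its change was -0.95 (standard error 0.13, limma fits, adjusted p = 0.111 with 6 and 0.00477 with 72 tumors), and its adjusted p in the fit of 72 was 0.0573 without NT tumor 5. The paired chains fell by like amounts. Nid2, the nidogen that links laminin to collagen, was at 4.94, 4.12 and 6.45 TPM in NT and 1.33, 1.72 and 1.39 TPM in LEN tumors. Its change was -1.301 (standard error 0.18, limma fits, adjusted p = 0.111 with 6 and 5.43e-05 with 72 tumors). Nid2 stands on the tip cell list as well, and the other members of the basement membrane list that fell were the laminin chains Lama4, which passed only without NT tumor 1 when a tumor was left out (adjusted p up to 0.150 otherwise), and Lamb1. Col18a1 and Lama5, which epithelial basement membranes also contain, had changes of 0.12 and 0.07 and did not pass.

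Among 11 tested genes of pericytes and smooth muscle the median change was -0.29, and LEN stood below NT for 5, against 9.06% of all genes. Against 0.703% of all genes, 3 of 12 fell in the fit of 72 (0 without NT tumor 5 and 1 without NT tumor 1, LEN tumor 2 or LEN tumor 3). They were Rgs5, a pericyte regulator of G protein signaling, at 14.1, 9.24 and 17.5 TPM in NT and 6.75, 5.25 and 6.51 TPM in LEN tumors, Mcam, at 22.6, 19.7 and 24.9 TPM in NT and 12.8, 9.4 and 14.1 TPM in LEN tumors, and Notch3, the Notch receptor of mural cells, at 4.72, 4.88 and 6.65 TPM in NT and 3.33, 2.84 and 2.83 TPM in LEN tumors. The changes were -0.99, -0.85 and -0.67 (limma adjusted p in the fit of 72 = 0.0351, 0.0332 and 0.0061, and between 0.202 and 0.292 in the fit of 6). The smooth muscle genes were not called, and Acta2 was at 23.4, 27.6 and 33.2 TPM in NT and 24.2, 25.5 and 26.7 TPM in LEN tumors and Tagln at 23.4, 18.7 and 20.9 TPM in NT and 21.5, 17.4 and 16.1 TPM in LEN tumors, both with overlapping groups. Pdgfrb, the PDGF receptor of pericytes, had a change of -0.29 and did not pass (limma fits, adjusted p = 0.612 with 6 and 0.625 with 72 tumors).

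Of the receptors that LEN inhibits, 0 were called by limma in either fit (0 at an unadjusted p under 0.05 with 6 tumors). Of 10 genes, 6 were tested in the fit of 6 with a median change of -0.14, and the groups overlapped for all 6. The median was -0.25 without NT tumor 1 and -0.09 without NT tumor 2. Flt1 (VEGFR1) was at 7.13, 14.02 and 13.6 TPM in NT and 8.72, 6.78 and 9.17 TPM in LEN tumors. Its change was -0.405 (standard error 0.25, limma fits, adjusted p = 0.731 with 6 and 0.595 with 72 tumors). Fgfr1 was the most abundant of the receptors, at 39.5, 49.96 and 56.5 TPM in NT and 46.1, 38.3 and 42.7 TPM in LEN tumors, with a change of -0.18 (standard error 0.15). Fgfr2 had a change of -0.05, Kit of -0.102 and Pdgfra of 0.0021, and their signs turned when a tumor was left out. Flt4 (VEGFR3), at 1.06, 1.05 and 1.1 TPM in NT and 0.24, 0.65 and 0.55 TPM in LEN tumors, did not overlap, but its mean was under the minimum in the fit of 6 (limma adjusted p = 0.0687 in the fit of 72). It was called lower in the fit of 72 at a pseudocount of 0.1 and with either rescaling. Fgfr3 stood between 0.59 and 1.34 TPM, Ret between 0.06 and 0.25 TPM and Fgfr4 between 0 and 0.1 TPM in the 6 tumors.

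Of the ligands, Vegfa was at 77.7, 94.6 and 102 TPM in NT and 143, 115 and 143 TPM in LEN tumors. All LEN tumors were above all NT tumors, with a change of 0.55 (standard error 0.14) that did not pass (limma fits, adjusted p = 0.332 with 6 and 0.205 with 72 tumors). Pgf, a ligand of VEGFR1, was at 1.94, 2.93 and 4.36 TPM in NT and 2.35, 1.04 and 1.97 TPM in LEN tumors, with overlap. Genes that report MAPK signaling downstream of growth factor receptors had a median change of 0.13 over 16 members (0.03 without NT tumor 1). In the fit of 72, 1 of 16 rose, against 0.329% of all genes, while with either rescaling Spry4 and Spred1 were also called, as lower. The gene that rose was Fosl1, a subunit of the AP-1 transcription factor, at 54.7, 46.2 and 61.5 TPM in NT and 122, 119 and 102 TPM in LEN tumors. Its change was 1.07 (standard error 0.13, limma fits, adjusted p = 0.0738 with 6 and 0.00205 with 72 tumors). The feedback inhibitors Spry4 and Spry1 were at 3.37, 3.68 and 4.01 TPM in NT and 2.21, 2.36 and 2.49 TPM in LEN tumors, and at 7.12, 7.61 and 7.45 TPM in NT and 5.41, 4.96 and 6.31 TPM in LEN tumors. LEN tumors were below NT tumors for both, with changes of -0.48 and -0.36 that did not pass (limma fits, adjusted p = 0.367 with 6 and 0.0733 with 72 tumors for Spry4).

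Genes of the hypoxia response and of glycolysis were higher in LEN tumors. Of 24 tested hypoxia genes, with a median change of 0.47, LEN stood above NT for 15 and below for 0, against 5.09% and 9.06% of all genes. For the 18 glycolysis genes the numbers were 12 and 0, with a median of 0.44. The summed level of the hypoxia list was 1417, 1530.1 and 1611 in NT and 2435, 2160.1 and 2447 in LEN tumors, in TPM. In the fit of 72, 2 of 25 hypoxia genes and 3 of 18 glycolysis genes rose (0.329% of all genes) and 0 fell. With 6 tumors, 0 members of either list passed, with 14 and 12 at an unadjusted p under 0.05. The 2 hypoxia genes rose whichever tumor was left out, whereas 0 of the glycolysis genes did without NT tumor 5, LEN tumor 2 or LEN tumor 3. With upper-quartile scaling or the replicate block, 5 glycolysis genes rose, as Pgk1 and Pkm joined, and with protein-coding scaling 6, with Tpi1. Ldha did not pass in the fit of 72 when any single tumor was left out (limma adjusted p up to 0.0993), and Gapdh did not without NT tumor 5, LEN tumor 2 or LEN tumor 3 (up to 0.074).

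Car9 encodes carbonic anhydrase IX, a membrane enzyme that handles acid and a standard HIF target. It was at 24.6, 36.5 and 38.8 TPM in NT and 109, 85.5 and 105 TPM in LEN tumors and at 35.5, 62.1 and 34.6 TPM in treatment-naïve tumors. The LEN tumors were each above every NT tumor by a wide margin, and the change was 1.57 (standard error 0.19, limma fits, adjusted p = 0.0613 with 6 and 0.000864 with 72 tumors). Fam162a, a mitochondrial protein of the hypoxia response, was at 186, 162 and 181 TPM in NT and 317, 349 and 367 TPM in LEN tumors. Its change was 0.96 (standard error 0.11, limma fits, adjusted p = 0.0601 with 6 and 0.00281 with 72 tumors). Next by p in the fit of 6 were Ero1l, an oxidase of the endoplasmic reticulum, at 114, 112 and 131 TPM in NT and 232, 186 and 215 TPM in LEN tumors, and Bnip3, a mitophagy receptor, at 109.5, 99.6 and 116 TPM in NT and 190.1, 158 and 186 TPM in LEN tumors. Neither gene overlapped between groups, and neither passed (limma fits, adjusted p = 0.129 with 6 and 0.17 with 72 tumors for Ero1l, 0.136 and 0.286 for Bnip3). P4ha1, a collagen prolyl hydroxylase, was at 60.5, 68.8 and 63.8 TPM in NT and 92.3, 90.3 and 88.7 TPM in LEN tumors and did not pass (limma fits, adjusted p = 0.195 with 6 and 0.053 with 72 tumors), but was called higher in the fit of 72 with either rescaling or the replicate block. Some genes of the list overlapped between groups, such as Ddit4 at 93.8, 74.4 and 75.8 TPM in NT and 84.6, 75.1 and 84.2 TPM in LEN tumors and Angptl4 at 11.9, 13.6 and 13.8 TPM in NT and 13.6, 10.8 and 15.1 TPM in LEN tumors.

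The promoters of the 2 hypoxia genes that rose are shown because they hold the core of the HIF site. Windows run from 250 bases before to 50 bases after the RefSeq transcription start on GRCm38.p6, 5′ to 3′ along the gene, and capitals mark ACGTG or its reverse complement CACGT. Both motifs were searched, which overlap where they form CACGTG. Car9 is at chr4:43506776-43507075 on the plus strand, and Fam162a at chr16:36071512-36071811 on the minus strand.
Car9: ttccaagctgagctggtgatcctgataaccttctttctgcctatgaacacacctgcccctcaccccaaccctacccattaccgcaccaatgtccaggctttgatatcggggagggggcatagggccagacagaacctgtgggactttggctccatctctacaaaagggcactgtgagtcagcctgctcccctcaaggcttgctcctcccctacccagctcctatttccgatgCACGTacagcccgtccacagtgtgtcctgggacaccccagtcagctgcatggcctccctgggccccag
Fam162a: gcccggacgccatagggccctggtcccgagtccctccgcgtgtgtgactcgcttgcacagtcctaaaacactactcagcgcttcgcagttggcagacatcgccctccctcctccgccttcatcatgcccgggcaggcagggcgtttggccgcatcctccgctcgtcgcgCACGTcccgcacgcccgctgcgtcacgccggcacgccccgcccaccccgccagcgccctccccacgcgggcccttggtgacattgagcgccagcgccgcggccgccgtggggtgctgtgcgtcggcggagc
Each window holds 1 match, and it begins 18 bases before the RefSeq start in Car9 and 81 bases before it in Fam162a. In GENCODE M21 the Car9 gene starts earlier, at 43506966, so by that record the match lies inside the gene. Of the hypoxia list, 21 genes had a window and 16 of them (76.2%) held the core, as did 12 of 17 glycolysis genes (70.6%), 3 of 19 endothelial genes (15.8%) and 5886 of all 27025 genes (21.8%). A match is a description of the letters and not a bound site.

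Of the glycolysis enzymes, Ldha (lactate dehydrogenase A) was at 425, 394 and 409 TPM in NT and 613, 594 and 597 TPM in LEN tumors, Gapdh at 1028, 966 and 929 TPM in NT and 1539, 1621 and 1402 TPM in LEN tumors and Pgk1 (phosphoglycerate kinase) at 402, 354 and 379.9 TPM in NT and 594, 592 and 577 TPM in LEN tumors. The LEN tumors lay close together and above every NT tumor for all 3 enzymes. Changes were 0.55 for Ldha, 0.64 for Gapdh and 0.63 for Pgk1, and the limma adjusted p in the fit of 72 was 0.0257, 0.0129 and 0.0597 (between 0.136 and 0.175 in the fit of 6). Eno1, an enolase, was the third enzyme that rose. Slc2a1, the glucose transporter GLUT1, was at 47.7, 57.8 and 60.8 TPM in NT and 108, 86.9 and 89.1 TPM in LEN tumors and did not pass (limma fits, adjusted p = 0.166 with 6 and 0.11 with 72 tumors). Subunits of oxidative phosphorylation encoded in the nucleus had a median change of -0.04 over 22 members, close to that of all genes, with 0 called in either fit (0 at an unadjusted p under 0.05).

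**Figure D2:**
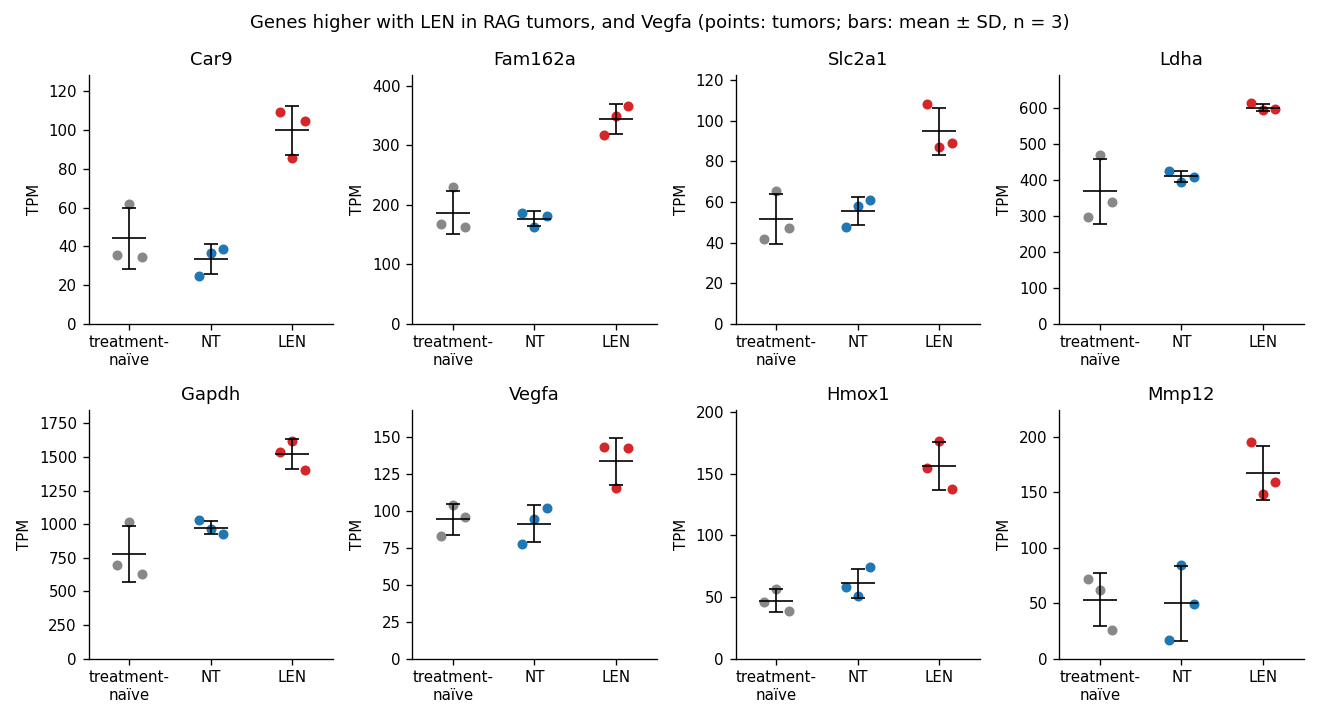
Level in TPM (linear axes from 0) of Car9, Fam162a, Slc2a1, Ldha, Gapdh, Vegfa, Hmox1 and Mmp12 in each treatment-naïve, NT and LEN tumor of RAG, with the mean and SD of 3 tumors. In all 8 panels the 3 LEN tumors lie above the 3 NT tumors.

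Outside these lists, the largest rises in the fit of 72 among protein-coding genes were named after their values were seen. Mmp12, the macrophage metalloelastase, was at 16.4, 84.4 and 48.9 TPM in NT and 195, 149 and 159 TPM in LEN tumors. Its change was 1.995 (standard error 0.52, limma fits, adjusted p = 0.332 with 6 and 0.00345 with 72 tumors), and NT tumor 1 was far below the other NT tumors (adjusted p in the fit of 72 = 0.120 without it). Hmox1, heme oxygenase 1, was at 58.4, 50.5 and 73.9 TPM in NT and 155, 177 and 137 TPM in LEN tumors. Its change was 1.35 (standard error 0.16, limma fits, adjusted p = 0.0613 with 6 and 0.0175 with 72 tumors), and it passed in the fit of 72 only without NT tumor 5 or LEN tumor 4, with adjusted p-values up to 0.0952 without the others. Avil, the actin-binding protein advillin, was at 16.7, 8.33 and 15.8 TPM in NT and 29.01, 37.9 and 33.5 TPM in LEN tumors (limma fits, adjusted p = 0.202 with 6 and 0.000187 with 72 tumors) and passed whichever tumor was left out. Aldh1l2, a mitochondrial folate enzyme on the integrated stress response list, was at 39.5, 25.2 and 44.1 TPM in NT and 74.3, 76.7 and 86.5 TPM in LEN tumors (limma fits, adjusted p = 0.169 with 6 and 0.00304 with 72 tumors), with an adjusted p of 0.0619 in the fit of 72 without NT tumor 2. It was the 1 of 22 members of that list that rose, against 0.329% of all genes, and the list's median change was 0.16 (lowest 0.08, without NT tumor 2). Adam8, a membrane protease of leukocytes and tumor cells, was at 6.12, 14.7 and 20.2 TPM in NT and 39.4, 27.7 and 28.6 TPM in LEN tumors (limma fits, adjusted p = 0.397 with 6 and 0.00288 with 72 tumors), with an adjusted p of 0.114 in the fit of 72 without NT tumor 1. Il7r, the interleukin 7 receptor, was at 1.61, 2.71 and 1.55 TPM in NT and 6.4, 6.23 and 4.92 TPM in LEN tumors (limma fits, adjusted p = 0.136 with 6 and 0.00288 with 72 tumors).

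The other large rises were of low or variable genes. Crabp1, a retinoic acid binding protein, was at 1.54, 5.32 and 6.08 TPM in NT and 9.56, 12.4 and 16.96 TPM in LEN tumors. Dnmt3l, a cofactor of DNA methyltransferases, was at 0.56, 0.49 and 0.070 TPM in NT and 2.14, 2.17 and 2.58 TPM in LEN tumors, and Fam71f2 at 0.27, 0.36 and 0.45 TPM in NT and 2.11, 2.27 and 2.72 TPM in LEN tumors. Gsta1, a glutathione transferase, was at 1.79, 0.75 and 1.55 TPM in NT and 5.12, 5.13 and 3.81 TPM in LEN tumors, and Apol10b at 4.11, 11.4 and 1.85 TPM in NT and 9.61, 17.6 and 9.22 TPM in LEN tumors. The groups of Apol10b overlapped, and those of the other 4 genes did not. The limma adjusted p in the fit of 72 was 0.0113 for Crabp1, 0.00205 for Dnmt3l, 0.00359 for Fam71f2, 0.0368 for Gsta1 and 0.0444 for Apol10b, and none of the 5 passed in the fit of 6 (adjusted p of at least 0.129). Dnmt3l and Fam71f2 passed in the fit of 72 whichever tumor was left out. Gsta1 did not pass without any single tumor (adjusted p up to 0.217), Apol10b passed only without NT tumor 2 (up to 0.478 without the others), and Crabp1 did not pass without NT tumor 1 (0.198) or LEN tumor 4 (0.1).

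Of the largest falls, S100g, which encodes the calcium-binding protein calbindin-D9k of kidney and gut epithelium, was at 15.9, 17.5 and 18.2 TPM in NT and 2.06, 6.19 and 9.82 TPM in LEN tumors. Its change was -1.55 (standard error 0.41, limma fits, adjusted p = 0.344 with 6 and 0.000287 with 72 tumors), and the LEN tumors, all below the NT tumors, spread widely. The standard error of 0.41 is from the 6 RAG tumors. That of the fit of 72, taken over 24 groups, was smaller, so S100g passed there on a spread below that of RAG itself. Trp53i11, a p53-inducible gene, was at 10.4, 9.45 and 11.98 TPM in NT and 3.5, 3.63 and 4.35 TPM in LEN tumors (limma fits, adjusted p = 0.0601 with 6 and 2.5e-05 with 72 tumors), and Abca9, a lipid transporter, at 5.23, 6.38 and 4.65 TPM in NT and 0.93, 1.64 and 1.11 TPM in LEN tumors (limma fits, adjusted p = 0.0613 with 6 and 5.8e-06 with 72 tumors). Both had tight groups that did not overlap and passed in the fit of 72 whichever tumor was left out, as did S100g and Susd1, at 2.4, 3.44 and 4.34 TPM in NT and 0.47, 0.36 and 1.42 TPM in LEN tumors (limma fits, adjusted p = 0.246 with 6 and 0.00345 with 72 tumors). At a pseudocount of 0.1 in place of 1, S100g did not pass in the fit of 72 (limma adjusted p = 0.521), nor did Rnase2a (0.132), Avil (0.0972), Crabp1 (0.204), Gsta1 (0.253) or Apol10b (0.255). Fcrls, an Fc receptor-like gene of macrophages and microglia, was at 11.7, 4.08 and 14.2 TPM in NT and 2.38, 1.02 and 1.8 TPM in LEN tumors (limma fits, adjusted p = 0.273 with 6 and 0.0234 with 72 tumors). Rnase2a, an eosinophil-type ribonuclease that macrophages also make, was at 4.46, 38.4 and 42.02 TPM in NT and 13.2, 0.46 and 1.18 TPM in LEN tumors, with overlap (limma fits, adjusted p = 0.556 with 6 and 0.0439 with 72 tumors). Fcrls passed only without NT tumor 2 or LEN tumor 2 (adjusted p up to 0.159 otherwise), and Rnase2a only without NT tumor 1 or LEN tumor 2 (up to 0.292).

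Macrophage genes were lower in part. Of 17 tested members, 15 had a negative change, with a median of -0.43. LEN stood below NT for 8 and above for 1, against 9.06% and 5.09% of all genes. In the fit of 72, 2 of 17 fell (0 without NT tumor 1, LEN tumor 2 or LEN tumor 4), against 0.703% of all genes. Without NT tumor 2 neither of these passed and Folr2 did. With either rescaling 5 fell, namely Csf1r, Apoe, Adgre1, Trem2 and Folr2. Csf1r, the receptor for the macrophage growth factor CSF1, was at 97.3, 123 and 82.3 TPM in NT and 50.7, 65.2 and 48.6 TPM in LEN tumors (limma fits, adjusted p = 0.229 with 6 and 0.0311 with 72 tumors), and Apoe was the other gene that fell, at 1568, 1721 and 1268 TPM in NT and 470.4, 1079 and 735 TPM in LEN tumors (limma fits, adjusted p = 0.358 with 6 and 0.0212 with 72 tumors). Folr2, a marker of tissue-resident macrophages, was at 8.35, 4.57 and 8.28 TPM in NT and 3.17, 3.05 and 1.98 TPM in LEN tumors and did not pass (limma fits, adjusted p = 0.275 with 6 and 0.0759 with 72 tumors). Cd68, a lysosomal protein of all macrophages, was at 367, 358 and 291 TPM in NT and 322, 439 and 405 TPM in LEN tumors, with overlap. Itgam (CD11b) was the member whose LEN tumors were above all NT tumors, at 17.01, 14.3 and 18.6 TPM in NT and 21.6, 21.6 and 22.8 TPM in LEN tumors (limma fits, adjusted p = 0.406 with 6 and 0.458 with 72 tumors).

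The NT tumors spread widely in interferon and T cell genes. The summed level of 22 interferon gamma response genes was 1691, 3158 and 631 in NT and 2095, 2959.8 and 1683 in LEN tumors, in TPM. NT tumor 2 was the highest of the 6 and NT tumor 5 the lowest. All 22 genes were tested with a median change of 0.53, and 21 had a positive change, but LEN stood above NT for 0 of them and 0 were called in either fit (0 at an unadjusted p under 0.05). Without NT tumor 5 the median was -0.08, and without NT tumor 2 it was 0.97. The T cell list had a median change of 0.45 over 23 genes. LEN stood above NT for 2, against 5.09% of all genes, with 0 calls in either fit (1 at an unadjusted p under 0.05 in limma). Its summed TPM was 65.3, 145 and 45.8 in NT and 100.0, 142 and 91.6 in LEN tumors. The T cell median was 0.24 without NT tumor 5 and 0.81 without NT tumor 2. Cd3e and Zap70 were called higher in the fit of 72 without NT tumor 2, and Tigit with either rescaling. MHC class I genes had a median of 0.38 (0.07 without NT tumor 5), interferon-stimulated genes 0.34 (-0.12 without NT tumor 5) and MHC class II genes -0.17 (0.15 without NT tumor 2). Ido1, a tryptophan-degrading enzyme induced by interferon gamma, ranged from 0.280 to 13.7 TPM in NT and from 6.00 to 22.1 TPM in LEN tumors (limma fits, adjusted p = 0.707 with 6 and 0.0526 with 72 tumors). It was called higher in the fit of 72 with either rescaling, without NT tumor 2 and without LEN tumor 4. Gzma, a granzyme of cytotoxic cells, was at 3.81, 15.6 and 2.0 TPM in NT and 3.97, 3.97 and 2.99 TPM in LEN tumors.

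**Figure D3:**
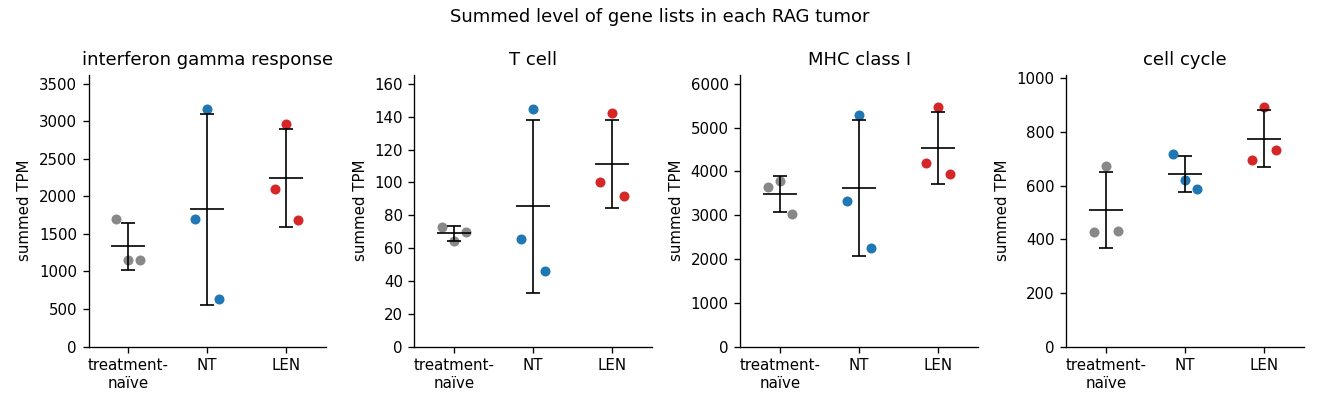
Summed TPM (linear axes from 0) of the interferon gamma response, T cell, MHC class I and cell cycle lists in each treatment-naïve, NT and LEN tumor of RAG, with the mean and SD of 3 tumors. In the first 3 panels NT tumor 2 is high and NT tumor 5 low, with the LEN tumors inside or near that span.

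No cell cycle gene was called in RAG. All 21 had a positive change, with a median of 0.22. LEN stood above NT for 6, against 5.09% of all genes, with 0 called by limma in either fit (4 higher at an unadjusted p under 0.05). Cdca8, a subunit of the chromosomal passenger complex, was at 24.9, 21.6 and 22.5 TPM in NT and 29.9, 34.3 and 31.96 TPM in LEN tumors, and Tpx2, a spindle assembly factor, at 26.6, 26.5 and 24.1 TPM in NT and 33.5, 42.2 and 35.2 TPM in LEN tumors. The groups of both did not overlap, and neither passed (limma fits, adjusted p = 0.275 with 6 and 0.182 with 72 tumors for Cdca8, 0.29 and 0.184 for Tpx2). The median stayed between 0.12 and 0.29 when a tumor was left out and was 0.17 with upper-quartile and 0.18 with protein-coding scaling. DNA replication genes had a median of 0.18 (0.05 without LEN tumor 3, 0.11 without NT tumor 5 and 0.29 without NT tumor 1), with no member whose groups did not overlap.

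Genes of cholesterol synthesis had mostly negative changes. Of 18 members 17 had a negative change, with a median of -0.26, and LEN stood below NT for 9, against 9.06% of all genes. Against 0.703% of all genes, 1 of 18 fell in the fit of 72 (5 with either rescaling). That gene, Mvd (mevalonate diphosphate decarboxylase, not to be read as the vessel score), was at 16.2, 15.8 and 12.03 TPM in NT and 9.51, 9.09 and 9.12 TPM in LEN tumors (limma fits, adjusted p = 0.267 with 6 and 0.0365 with 72 tumors), and it passed only without NT tumor 5 when a tumor was left out, with adjusted p-values up to 0.177 without the others. Idi1, the isomerase of the same pathway, was at 29.6, 25.7 and 24.6 TPM in NT and 19.1, 19.6 and 18.9 TPM in LEN tumors (limma fits, adjusted p = 0.279 with 6 and 0.471 with 72 tumors). Fibroblast and interstitial matrix genes had a median of -0.25 over 21 members. LEN stood below NT for 1, against 9.06% of all genes, with 0 calls in either fit (2 lower at an unadjusted p under 0.05 in limma). The median was -0.45 without NT tumor 1, -0.08 without NT tumor 2 and -0.14 without LEN tumor 3, and Fap was called lower in the fit of 72 with protein-coding scaling. Among matrix proteases, Mmp12 rose and Adamts4, at 3.18, 5.48 and 4.83 TPM in NT and 2.69, 1.87 and 3.1 TPM in LEN tumors (limma fits, adjusted p = 0.491 with 6 and 0.0183 with 72 tumors), fell, with Mmp3 and Mmp13 also called higher with either rescaling. Without NT tumor 1 no protease was called higher (limma, fit of 72) and Mmp9 was called lower. Adamts4 did not pass in the fit of 72 without NT tumor 2 (0.182), NT tumor 5 (0.0942) or LEN tumor 3 (0.177).

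Genes of blood and of neighboring tissues were also detected. Hbb-bs, a hemoglobin chain, was at 10.4, 8.22 and 10.1 TPM in NT and 1.43, 1.72 and 0.38 TPM in LEN tumors. Its change was -2.33 (standard error 0.26, limma fits, adjusted p = 0.0601 with 6 and 0.0292 with 72 tumors), and it did not pass in the fit of 72 when any single tumor was left out (adjusted p up to 0.172). The hemoglobin chains Hba-a2 and Hba-a1 were likewise below every NT tumor, while Alas2, the heme synthesis enzyme of red cell precursors, overlapped. Over the 8 erythrocyte genes the summed TPM was 30.8, 20.1 and 32 in NT and 10.2, 8.98 and 4.78 in LEN tumors. Skeletal muscle genes (16 members, median -0.34, 0 calls) summed to 248, 245 and 227 in NT and 133, 241 and 223 in LEN tumors, so that LEN tumor 2 stood low, and the median was -0.08 without it. Adipocyte genes (7 tested, median -0.32, 0 calls) summed to 56.3, 88.9 and 72.9 in NT and 44.9, 82.3 and 64.2 in LEN tumors. Keratinocyte genes summed to 3.6, 2.09 and 3.05 in NT and 7.83, 2.93 and 23.6 in LEN tumors. Of these, Krt1 and Flg were at 0 in the 3 NT tumors and LEN tumor 3, at 0.7 and 0.3 TPM in LEN tumor 2 and at 3.61 and 2.59 TPM in LEN tumor 4. What these tissues contributed to other genes was not tested, and the counts without each tumor are given beside the lists above.

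**Figure D4:**
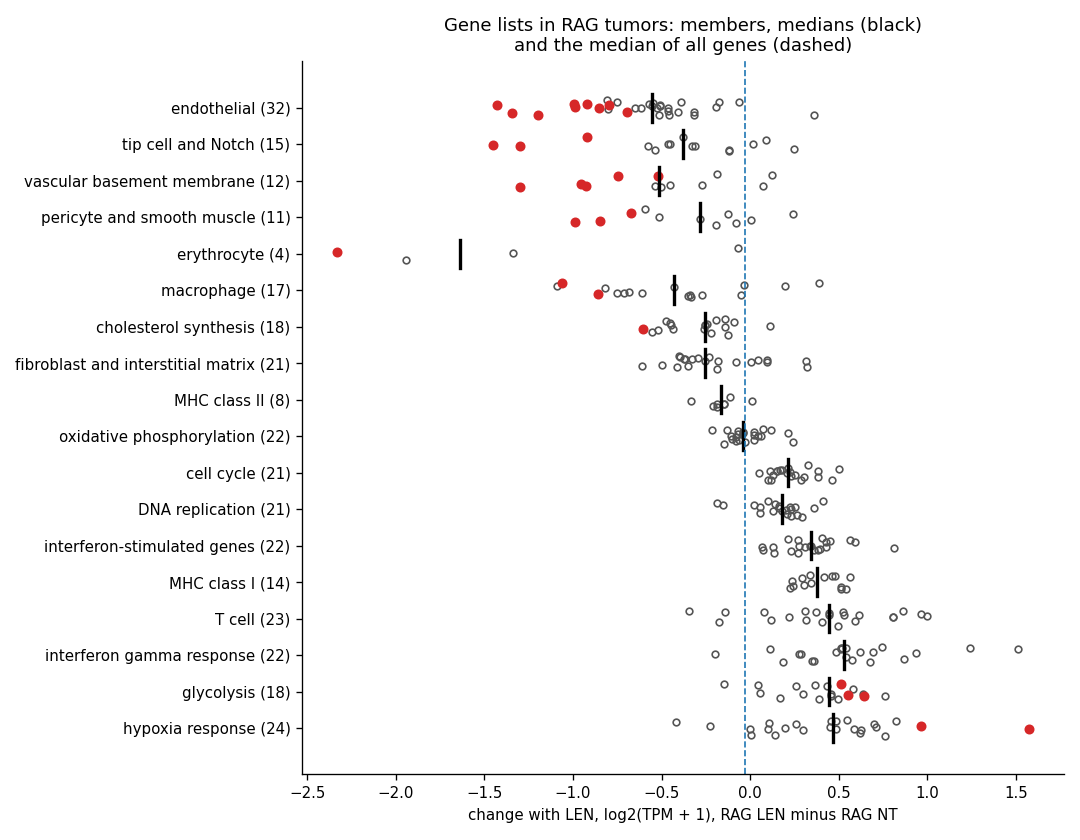
Change with LEN on the log2(TPM + 1) scale (RAG LEN minus RAG NT, fit of 6) of the members of 18 gene lists, with the number tested in parentheses, the list median as a black bar and the median of all genes (-0.03) as a dashed line. Filled red points passed in the fit of 72. The vascular lists and the erythrocyte list lie to the left, and the hypoxia, glycolysis and interferon lists to the right, the last with no red point.

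Whether the effect of LEN in RAG differed from that in other models was tested as a difference of effects in the fit of 72. Against the mean effect in the other 11 models, 41 of 17351 genes (0.236%) had a higher and 98 (0.565%) a lower change in RAG. With upper-quartile scaling the numbers were 138 and 392, and with protein-coding scaling 159 and 409. Against the mean of the 5 other models in BALB/cAnNCrlCrlj mice they were 72 and 249. The higher ones were 24 without LEN tumor 2, 9 without LEN tumor 3, 17 without LEN tumor 4 or NT tumor 5 and 21 without NT tumor 2, and the lower ones 47, 63 and 44 without LEN tumors 2, 3 and 4 and 26 without NT tumor 2. Of the vessel genes, 0 of the 9 endothelial genes that fell in RAG differed (Cd34 had a lower change with either rescaling). Kdr had a higher change against the 5 models of the same strain, and Apln, on the tip cell list, against all 11. The Apln call was lost, for example, at a pseudocount of 0.1, at the filter of 5 TPM and without NT tumor 1. For Igfbp3 the difference was -0.06 (standard error 0.18, limma adjusted p = 0.961). The MVD gene score changed by -0.49 in RAG and -0.67 on average in the others, a difference of 0.17 (standard error 0.16) that did not pass in limma at an unadjusted 0.05. Against the 5 models of the same strain it was 0.29 and did not pass either. RAG had the 10th largest fall of the 12 models. A p over the threshold does not show that the effects were alike.

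The genes with a higher change in RAG included Car9, with a difference of 1.19 (standard error 0.29, limma adjusted p = 0.0342), where the mean change in the other models was 0.38. Hmox1 had a difference of 1.26 (standard error 0.33, adjusted p = 0.0497), and Mmp13, the collagenase 3, of 1.299 (standard error 0.33, adjusted p = 0.0444). Mmp13 was at 16.1, 33.5 and 23.9 TPM in NT and 67.2, 44.96 and 50.6 TPM in LEN tumors in RAG, without overlap. Crabp1 (1.51, adjusted p = 0.0211) and Avil (1.13, adjusted p = 0.00378) complete the 5 largest. RAG had the highest change of the 12 models for each of these 5 genes. On the lower side were S100g, at -1.64 (standard error 0.27, adjusted p = 0.000464), Rnase2a at -2.81 (adjusted p = 0.0399), Cish, a feedback inhibitor of cytokine receptors, at -1.76 (adjusted p = 0.00179), Susd1 at -1.37 (adjusted p = 0.00804) and Slpi, a secreted protease inhibitor, at -1.33 (adjusted p = 0.0387). RAG had the lowest change of the 12 models for each of the 5. Of these 10 genes only S100g and Cish passed whichever RAG tumor was left out, and only Cish and Susd1 passed at a pseudocount of 0.1. Car9 passed only without NT tumor 5 when a tumor was left out (adjusted p up to 0.136), Mmp13 only without NT tumor 2 (up to 0.171), Slpi only without NT tumor 5 (up to 0.260) and Hmox1 not at all (up to 0.229). Avil did not pass without NT tumor 2 (0.101), Crabp1 without NT tumor 1, LEN tumor 3 or LEN tumor 4 (up to 0.162), Susd1 without NT tumor 5, LEN tumor 2 or LEN tumor 3 (up to 0.0687), and Rnase2a without NT tumors 2 or 5 or LEN tumors 3 or 4 (up to 0.244).

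For the cell cycle list the median difference from the mean of the other 11 models was 0.63, beside -0.04 over all genes, and 5 of 21 had a higher change in RAG (0.236% of all genes) and 0 a lower one. They were Tpx2 (0.85, limma adjusted p = 0.00875), Cdca8 (0.84, 0.00404), Ube2c (0.79, 0.049), Aurka (0.75, 0.0228) and Cdc20 (0.64, 0.0387), which act in mitosis. Without LEN tumor 3 this was 1 gene, Cdca8, and it was 2 (Tpx2 and Cdca8) without NT tumor 2, NT tumor 5 or LEN tumor 4, whereas with either rescaling it was 15. The list summed to 717, 622 and 588 in NT and 694, 895 and 734 in LEN tumors, in TPM, with LEN tumor 3 the highest of the 6 and NT tumor 1 above LEN tumor 2. In the other 11 models the mean changes of those 5 genes lay between -0.42 and -0.35, against 0.22 to 0.500 in RAG. The median differences of some lists of other cell types, without a call, were -1.297 for skeletal muscle, -0.75 for neutrophil, -0.74 for adipocyte and -0.61 for MHC class II genes, and with either rescaling Pvalb and Atp2a1 of skeletal muscle and Cxcr2 of neutrophils had a lower change. What they contributed was not tested. On the kidney list, 4 of 18 had a lower change in RAG (0.565% of all genes), namely Clu (-1.04, adjusted p = 0.00566), Spp1 (-0.89, 0.017), Cdh6 (-0.69, 0.000375) and Hnf4a (-0.62, 0.000375). In the 6 RAG tumors Cdh6 reached at most 0.610 TPM and Hnf4a at most 0.440 TPM. Without NT tumor 2 the lower ones were Cdh6 and Hnf4a alone. The Spp1 call was also lost without NT tumor 1, and that of Cdh6 at a pseudocount of 0.1. Spp1 (osteopontin) is also on the macrophage list.

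Renca is the other kidney cancer model, in mice of the same strain. Against it, 160 genes (0.922%) had a higher and 105 (0.605%) a lower change in RAG (237 and 497 with upper-quartile scaling, 289 and 389 with protein-coding scaling). Without LEN tumor 3 the higher ones were 92, and without NT tumor 2 the lower ones were 68. The MVD gene score changed by -1.05 in Renca, the largest fall of the 12 models, and the difference of 0.55 (standard error 0.22) passed in limma at an unadjusted 0.05. Among the endothelial genes, Flt1 (1.26, limma adjusted p = 0.025), Kdr (1.05, 0.0152), Flt4 (0.88, 0.00956) and Sparcl1 (1.196, 0.0151) had a higher change in RAG (7 genes with either rescaling) and 0 of 37 a lower one. The changes of these receptors in Renca were -1.66 for Flt1, -1.22 for Kdr and -1.37 for Flt4. Of the basement membrane genes 5 of 12 and of the pericyte genes 4 of 12 had a higher change in RAG (1 pericyte gene, Cspg4, had a lower one), among them Lama4 (1.19, 0.00784), Col4a1 (1.07, 0.0297), Abcc9 (1.41, 0.000796) and Pdgfrb (1.22, 0.00141). Macrophage genes had a median difference of 0.64 from Renca, beside 0.02 over all genes, with 4 of 17 higher, which were C1qa, C1qb, C1qc and Itgam (only Itgam without NT tumor 5 or LEN tumor 3). Of the cell cycle list 4 of 21 were higher (0 without LEN tumor 3), and the median of 5 erythrocyte genes was 1.53 without a call. Their part in the differences of vessel genes was not tested. Igfbp3 had a difference of 0.97 (adjusted p = 0.0216), from a change of -2.51 in Renca.

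The largest differences from Renca were of Mmp13 (2.504, standard error 0.45, limma adjusted p = 0.000491) and Apln (2.399, standard error 0.28, adjusted p = 7.01e-08). Apln had a change of -2.15 in Renca and 0.25 in RAG, the highest of the 12 models. Pde2a, a phosphodiesterase, followed at 2.14 (adjusted p = 0.015), then the histone gene Hist1h3g at 1.99 (6.09e-05) and Car9 at 1.901 (0.00379). Over 66 tested histone genes, a set picked after their values were seen, the median change was 0.02 in RAG and -0.81 in Renca. Of the 66, 17 had a higher change in RAG (0.922% of all genes) and 0 a lower one (0.605%). The higher ones were 10 without NT tumor 5 or LEN tumor 3, and 26 with upper-quartile and 28 with protein-coding scaling. The 5 largest lower differences were of 2610528A11Rik at -2.86 (adjusted p = 9.72e-05), S100g at -2.55 (8.32e-06), Tmem108 at -2.27 (8.95e-15), Susd1 at -1.96 (0.00162) and Slfn4 at -1.92 (0.0213). In RAG itself, 2610528A11Rik was at 348, 486 and 267 TPM in NT and 679.8, 679.8 and 769 TPM in LEN tumors, above every NT tumor without passing (limma fits, adjusted p = 0.255 with 6 and 0.159 with 72 tumors), whereas Tmem108 lay between 0.25 and 0.68 TPM. Tmem108 thus met the minimum of the fit of 72 only through other models. Among these 10 genes, Pde2a did not pass without NT tumor 5 (0.0556), nor Slfn4 without NT tumor 1 (0.0746) or LEN tumor 4 (0.0621). At a pseudocount of 0.1, 2610528A11Rik (limma adjusted p = 0.245) and S100g (0.358) did not pass.

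**Figure D5:**
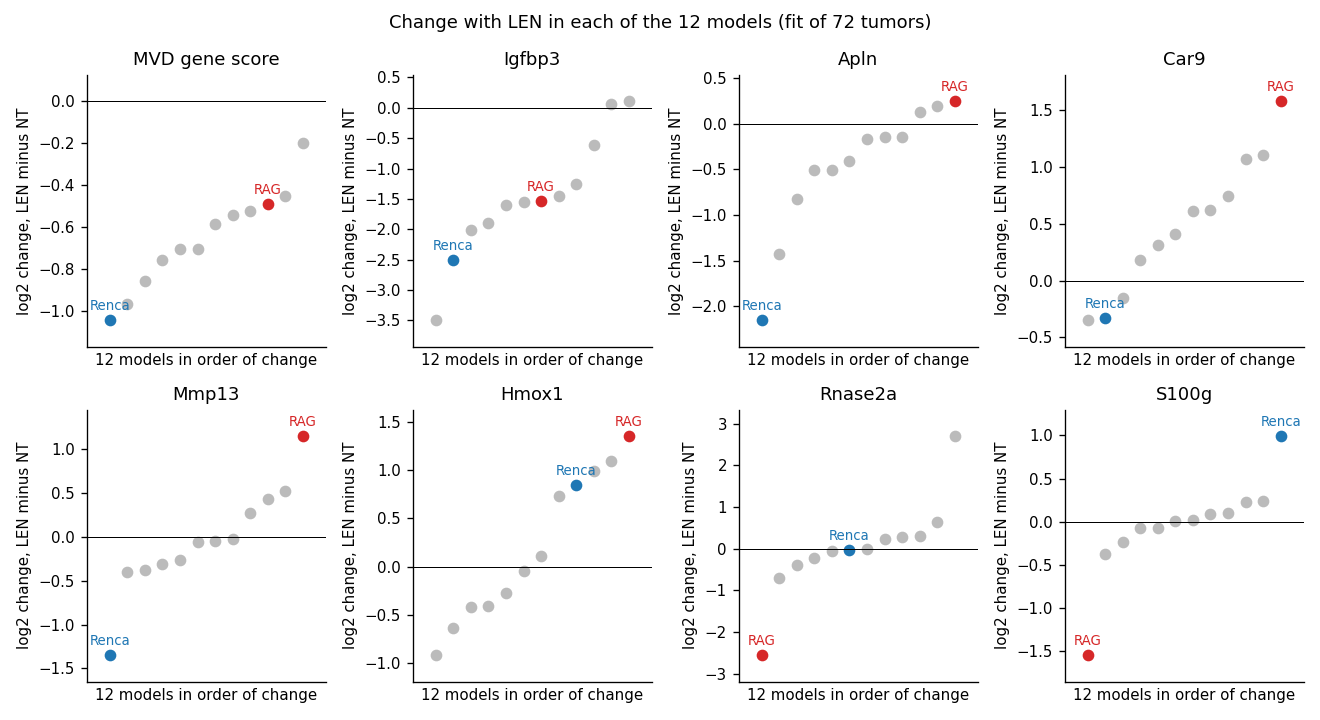
Change with LEN on the log2(TPM + 1) scale (LEN minus NT, fit of 72) of the MVD gene score and 7 genes in each of the 12 models, in order of change, with RAG in red, Renca in blue and the other models in gray. RAG is the highest model for Apln, Car9, Mmp13 and Hmox1, the lowest for Rnase2a and S100g, and in the middle for Igfbp3.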

How the data were processed

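RNA was purified from whole tumors and sequenced after rRNA depletion. Per the labels, the submitters' notes name bcl2fastq, Trimmomatic 0.36, STAR 2.5.2b and RSEM 1.2.31 with the build mm10 (GRCm38). The authors deposited TPM (transcript abundance scaled to a fixed total per library) for 50686 genes in 107 tumors, of which 50462 have a record in GENCODE M21. TPM sum to the same total in each library, so depth is unknown and no count test was possible. TPM make levels comparable between genes of different length, but a large RNA share taken by a few genes lowers all others.

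Values were analysed as log2(TPM + 1), a scale that understates the change of low genes, in R 4.3.3 with limma 3.58.1 (linear model with an intensity trend, two-sided moderated test, Benjamini-Hochberg adjustment over all tested genes, threshold 0.05). The fit of 6 held the RAG LEN and NT tumors and genes that averaged 1 TPM or more. The fit of 72 held all day 8 tumors in 24 groups and gave the differences of effects. The MVD gene score was also tested by an exact permutation test. Python 3.11.15, pandas 2.3.3 and matplotlib 3.10.9 were used for tables and plots, and the limma scripts were tested on simulated data. Alternatives were a pseudocount of 0.1, no filter, a filter at an average of 5 TPM, 2 rescalings, no trend, other sets of tumors and each RAG tumor left out.

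No source states that the tumors of a group came from separate litters or cultures, and the p-values measure only the spread between these tumors. No pair of RAG tumors shared more than 1.92% identical values. Same-numbered LEN and NT tumors did not deviate together.

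The members and gene lists were chosen with earlier results of these data known. Genes were named if they belong to the MVD gene score, were Pecam1 or a LEN target, were among the 12 largest rises or falls past the threshold in the fit of 6, were among the 4 members with the smallest p of a list, or were among the 5 largest differences in each direction. The largest rises and falls of the fit of 72, list members named because they passed there or in a difference, and contrasting members whose groups overlapped were chosen after their values were seen. Strand and sequence of the promoter windows were taken from RefSeq as given.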

Additional observations from a re-analysis of the deposited data

Results flagged for a closer look

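The effect of LEN differed in RAG from the mean effect in the other 11 models for 41 genes with a higher and 98 genes with a lower change, by a limma test of the difference itself. The 5 largest differences upward were 1.513 for Crabp1, 1.299 for Mmp13, 1.256 for Hmox1, 1.191 for Car9 and 1.13 for Avil, in log2(TPM + 1). Downward they were -2.813 for Rnase2a, -1.756 for Cish, -1.635 for S100g, -1.367 for Susd1 and -1.33 for Slpi.

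Against Renca alone, 160 genes had a higher and 105 a lower change in RAG. The largest differences upward were 2.504 for Mmp13, 2.399 for Apln, 2.141 for Pde2a, 1.986 for Hist1h3g and 1.901 for Car9. Downward they were -2.858 for 2610528A11Rik, -2.547 for S100g, -2.272 for Tmem108, -1.956 for Susd1 and -1.917 for Slfn4. The MVD gene score differed from Renca by 0.5531. No explanation for these differences was tested.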

How the results depend on the processing

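In LEN tumors the MVD gene score was lower under every alternative run (change between -0.704 and -0.394), and between -0.54 and -0.42 without each tumor. In the fit of 6, the 4 genes called higher became 9 at the filter of 5 TPM, 0 in the fit of 9 RAG tumors and 57 in the fit of 72, and between 1 and 10 without each tumor. The 1 gene called lower became 2 at a pseudocount of 0.1, with protein-coding scaling or without the trend, 4 without a filter, 3 at the filter of 5 TPM, 5 in the fit of 9, 122 in the fit of 72, and between 1 and 6 without each tumor. In the fit of 72, the 57 higher became 112 without a filter, 93 with upper-quartile and 112 with protein-coding scaling (31 to 73 without each tumor), and the 122 lower became 254, 429 and 431, and 68 at the filter of 5 TPM (56 to 91). Against the other 11 models, the 41 higher became 8 at a pseudocount of 0.1, 86 without a filter, 25 at the filter of 5 TPM, 138 with upper-quartile and 159 with protein-coding scaling, and 72 against the 5 other models in BALB/cAnNCrlCrlj mice (9 to 34 without each tumor), and the 98 lower became 41, 240, 44, 392, 409 and 249 (26 to 84). Against Renca, the 160 higher became 289 with protein-coding scaling (92 to 167), and the 105 lower became 59, 392, 50, 497 and 389 under the first 5 of these settings (68 to 110). Pdgfra turned to -0.040 with upper-quartile and -0.030 with protein-coding scaling, and ranged from -0.30 to 0.21 without each tumor, Fgfr2 from -0.15 to 0.14 and Kit from -0.21 to 0.017. The cause was not tested for any of these.

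No paired analysis was possible because RAG LEN and NT tumors share only the number 2, so RAG alone cannot be fitted with a block. In the fit of 72 a replicate block moved the calls in RAG to 65 and 148, the differences from the other 11 models to 46 and 117 and from Renca to 182 and 119, and the score differences to 0.17 and 0.55, on the same sides of the threshold. Over 20 same-numbered pairs, 1 of them in RAG, the correlation of deviations lay between -0.0762 and 0.0763. The labels do not say what the numbers mark.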
